A study of Xenopus tropicalis with 12 samples.

Results

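Of the genomic regions that gave a thyroid hormone receptor (TR) peak in every wild-type library of tadpole intestine, 520 gave a peak in at most 2 of the 6 libraries of intestine lacking TRα. They were chosen by joining all peaks that overlapped by at least 1 bp across the 12 libraries and keeping those called in each of the 6 wild-type libraries and in 0, 1 or 2 TRα-/- libraries. The 520 regions are called members here. They made up 7.08% of the 7343 regions called in every wild-type library (wild-type regions hereafter), and joining gave 264370 regions in all. That share is what the rule selected and is not a test of the genotype. Because presence in wild-type and absence in TRα-/- libraries chose the members, every comparison of the genotypes below is a description without a test.

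TRs bind DNA at thyroid hormone response elements, usually as heterodimers with retinoid X receptors. Without hormone they recruit corepressors, and with hormone (T3) they recruit coactivators, while staying on the chromatin. In the frog intestine, T3 sets off the death of the larval epithelium and the formation of an adult epithelium from stem cells. TRα is the main TR of the tadpole before metamorphosis, and TRβ, itself induced by T3, is the TR that is left in TRα-/- animals.

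The groups were TRα-/- intestine with T3, TRα-/- intestine without T3, wild-type intestine with T3 and wild-type intestine without T3, at stage 54, with T3 given at 10 nM for 18 h. Knockout and wild-type tadpoles had the same parents. Each group was 1 ChIP DNA sample, merged from several tadpoles and sequenced as 3 technical replicates, so all spread and all p-values below measure how libraries vary when made and sequenced again, not how animals or ChIP experiments vary. Chromatin immunoprecipitation (ChIP) recovers DNA fragments bound by the protein that an antibody recognises, and the polyclonal antibody used here recognises TRα and TRβ, so a peak in a wild-type library can come from either receptor. In a wild-type sample a member can therefore not be assigned to TRα alone. Peaks were called per library with no input or IgG control. The peak lists give peaks and no sequence, and do not name thra, the gene of TRα, so the genotype could not be checked from them.

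The libraries held 17414 to 30916 peaks (TRα-/- T3), 38961 to 44196 (TRα-/- control), 34933 to 44567 (wild-type T3) and 34644 to 63333 (wild-type control). The lists carry no read totals, and depth is unknown. The background level worked back from pileup and fold enrichment, a rough index of depth, was 0.149 to 0.297 and 0.118 to 0.260 fragments per base in TRα-/- T3 and control libraries, against 0.251 to 0.664 and 0.0898 to 0.426 in wild-type T3 and control libraries. TRα-/- libraries therefore lay in the lower part of the wild-type range of this index, and the part of depth in the membership of a region was not tested. With the 17414 strongest peaks of each list alone, which equalises the length of the lists, 219 regions met the rule and 122 of the 520 members overlapped one of them.

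The label of these regions, lost without TRα, holds for the presence of peaks in most TRα-/- libraries, but 445 of the 520 members still had at least 1 TRα-/- peak. No TRα-/- library had a peak at 75 members, 146 had 1 and 299 had 2. The peaks were spread over both treatments: 102 members had TRα-/- peaks in T3 libraries alone, 165 in control libraries alone and 178 in both. Among the libraries, members had a peak least often in TRα-/- T3 replicate 1, the shortest list, with 64 (12.3%), and most often in TRα-/- control replicate 2, with 172 (33.1%). In the 4 TRα-/- libraries with a background level of at least 0.249, which are replicates 2 and 3 of both treatments, 109 members had no peak.

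No gap separated the members from other wild-type regions on this scale. The number of wild-type regions was 75, 146 and 299 with 0, 1 and 2 TRα-/- libraries, and went on as 514, 908, 1457 and 3944 with 3, 4, 5 and 6. Under the mirrored rule, with a peak in all 6 TRα-/- libraries and at most 2 wild-type libraries, there were 10 regions. Regions with a peak in all 6 TRα-/- libraries numbered 14, 80, 534 and 3944 with 3, 4, 5 and 6 wild-type libraries. How list length and depth bear on the difference between the mirrored rule and the member rule was not tested. Most wild-type regions thus had a peak in all TRα-/- libraries too, and the members are the end of a gradient.

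Most members were weak peaks in wild-type intestine. The rank of a peak in its own list, by −log10 p with 1 as the strongest, had a median of 12439 over wild-type libraries at members, against 2607.5 at the 3944 regions with a peak in all 12 libraries. The summit pileup, the number of overlapping fragments at the highest point of a peak, had a median of 8 at members and of 22.5 at regions with a peak in all 12 libraries. In single wild-type libraries the median pileup of members was 6, 11 and 12 with T3 and 4, 7 and 9 without, while the lowest pileup of any called peak was 2 to 4. Many members were thus close to the level at which a peak is called at all.

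**Figure D1:**
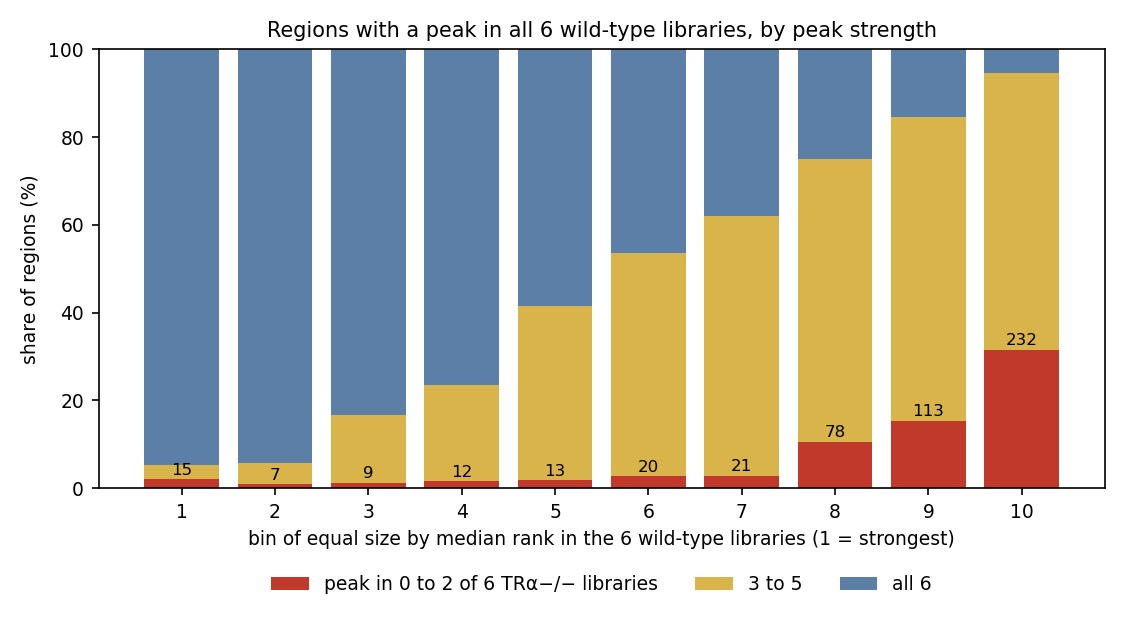
Share (%) of wild-type regions that had a peak in 0 to 2 (members, red), 3 to 5 (yellow) or all 6 (blue) TRα-/- libraries, in 10 bins of equal size by median wild-type rank, from strongest (1) to weakest (10). The numbers above the red bars are members. They made up 2.04% of bin 1, 0.954% of bin 2 and 31.6% of bin 10.

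When the 7343 regions were divided by their median wild-type rank into 10 bins of equal size, 423 of the 520 members (81.3%) fell in the weakest 3 bins. The share of members was 10.6%, 15.4% and 31.6% in these bins, and between 0.954% and 2.86% in each of the 7 stronger ones. It was not lowest in the strongest bin, where 15 regions (2.04%) were members, against 7 (0.954%) in the next. Members thus lay mostly in the weakest 3 bins (weak members hereafter), with 66 in the middle 4 bins and 31 in the strongest 3 bins (strong members hereafter).

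Where a member had a TRα-/- peak, that peak was low in fragments. The median pileup of the 744 TRα-/- peaks at members was 5 fragments and the highest 19, against a median of 8 for wild-type peaks at members. By library the TRα-/- medians were 5, 5 and 6 with T3 and 4, 5 and 6 without. In wild type they were 6, 11 and 12 with T3 and 4, 7 and 9 without. Lower TRα-/- pileups were not particular to members. At regions with a peak in all 12 libraries, the median TRα-/- pileup divided by the median wild-type pileup had a median of 0.556. Since the lists differ in length, ranks are given as a percent of the list, with low values for strong peaks. The median member peak stood at 37.6% to 47.3% of the list in TRα-/- T3 and 26.6% to 39.6% in TRα-/- control libraries, against 26.3% to 31.8% in wild-type T3 and 19.6% to 34.6% in wild-type control libraries. On this percent scale, with T3 the median member peak lay lower in every TRα-/- list than in every wild-type list, and without T3 the ranges overlapped. The TRα-/- T3 lists are shorter, and as plain ranks these medians overlapped. They were 8230.5, 12053 and 11621 in TRα-/- T3 and 11105, 11674 and 11740.5 in wild-type T3 replicates 1, 2 and 3. At 292 of the 445 members with a TRα-/- peak, the best TRα-/- rank was better than the median wild-type rank. TRα-/- ranks cover only members with a peak there.

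The strong members looked different. The strongest was an intergenic region of 215 bp at chr1:71652842-71653056 (Xenbase v9.1, as all positions), 16312 bp from adgrl3, which encodes an adhesion G protein-coupled receptor of the latrophilin family. Its summit pileup was 580, 1182 and 927 fragments in wild-type T3 replicates 1, 2 and 3 and 818, 1518 and 1802 in wild-type control replicates, with ranks of 7, 8 and 9 with T3 and 2, 3 and 5 without. A single TRα-/- library, control replicate 2, had a peak there, with a pileup of 17 and rank 1548. The 6 wild-type summits lay on 1 base position, with a range of 0 bp. It was thus among the 9 strongest peaks of every wild-type library and missing from 5 of 6 TRα-/- lists.

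The next members in rank were inside or near genes. The region in lrfn2, a leucine-rich repeat adhesion protein of synapses, at chr5:1060187-1061079 had pileups of 8 and 13 in TRα-/- T3 replicates 1 and 3, against 61, 166 and 169 in wild-type T3 and 80, 271 and 457 in wild-type control libraries. The region 4180 bp from ccdc13, a coiled-coil protein, at chr6:2555252-2555710 had no TRα-/- peak, against 44, 109 and 103 fragments in wild-type T3 and 65, 145 and 204 in wild-type control libraries. At lrfn2 every wild-type pileup lay above both TRα-/- pileups, and at ccdc13 no TRα-/- library had a value to compare.

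Regions in 6 further genes followed, at ranks of 178.5 to 471. The region in herc2, which encodes a large E3 ubiquitin ligase, at chr2:111067107-111067317 was 211 bp wide and had no TRα-/- peak, against pileups of 48, 92 and 94 in wild-type T3 and 60, 147 and 224 in wild-type control libraries. The region in gpsm1, a modulator of G protein signalling, at chr2:81772483-81773165 likewise had no TRα-/- peak, against 50, 86 and 95 with T3 and 53, 169 and 222 without in wild-type intestine. The region in rfx1, a winged-helix transcription factor, at chr3:129889890-129890218 had none either, against 26, 76 and 82 with T3 and 47, 110 and 180 without. In all 3 genes replicate 1, the replicate with the lowest background level in both wild-type groups, had the lowest pileup of its group.

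The region in reps1, an EH-domain protein of endocytosis, at chr5:65336809-65337312 had a TRα-/- peak of 4 fragments in T3 replicate 3 alone, against 25, 64 and 59 in wild-type T3 and 41, 103 and 139 in wild-type control libraries. The region in arhgap31, a GTPase-activating protein for Rac and Cdc42, at chr2:2374743-2375542 had no TRα-/- peak, against 31, 64 and 53 with T3 and 40, 97 and 157 without. The region in kissr1b, a kisspeptin receptor, at chr1:122619377-122619701 had 7 fragments in TRα-/- T3 replicate 3, against 26, 59 and 41 in wild-type T3 and 31, 70 and 106 in wild-type control libraries. It also overlapped LOC108645713. In reps1 and kissr1b the only TRα-/- peak lay under all 6 wild-type pileups, and in arhgap31 there was none to compare.

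Outside genes, the region 259313 bp from klhl29, a Kelch-like protein, at chr5:140331772-140332388 had TRα-/- pileups of 4 in T3 replicate 1 and 5 in control replicate 2, against 35, 60 and 41 in wild-type T3 and 45, 68 and 115 in wild-type control libraries. The region 11435 bp from dlx4, a distal-less homeobox transcription factor, at chr10:9719342-9719909 had 5 fragments in TRα-/- control replicate 2, against 24, 55 and 45 with T3 and 27, 70 and 77 without in wild-type intestine. The region nearest to cyp2c8.2, a cytochrome P450 gene 211508 bp away, at chr8:97780449-97780798 had 8 in TRα-/- T3 replicate 1, against 40, 61 and 111 with T3 and 14, 25 and 55 without. Of the 12 strongest members, this last region was the one whose pileup change with T3 was above 0 after normalisation.

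**Figure D2:**
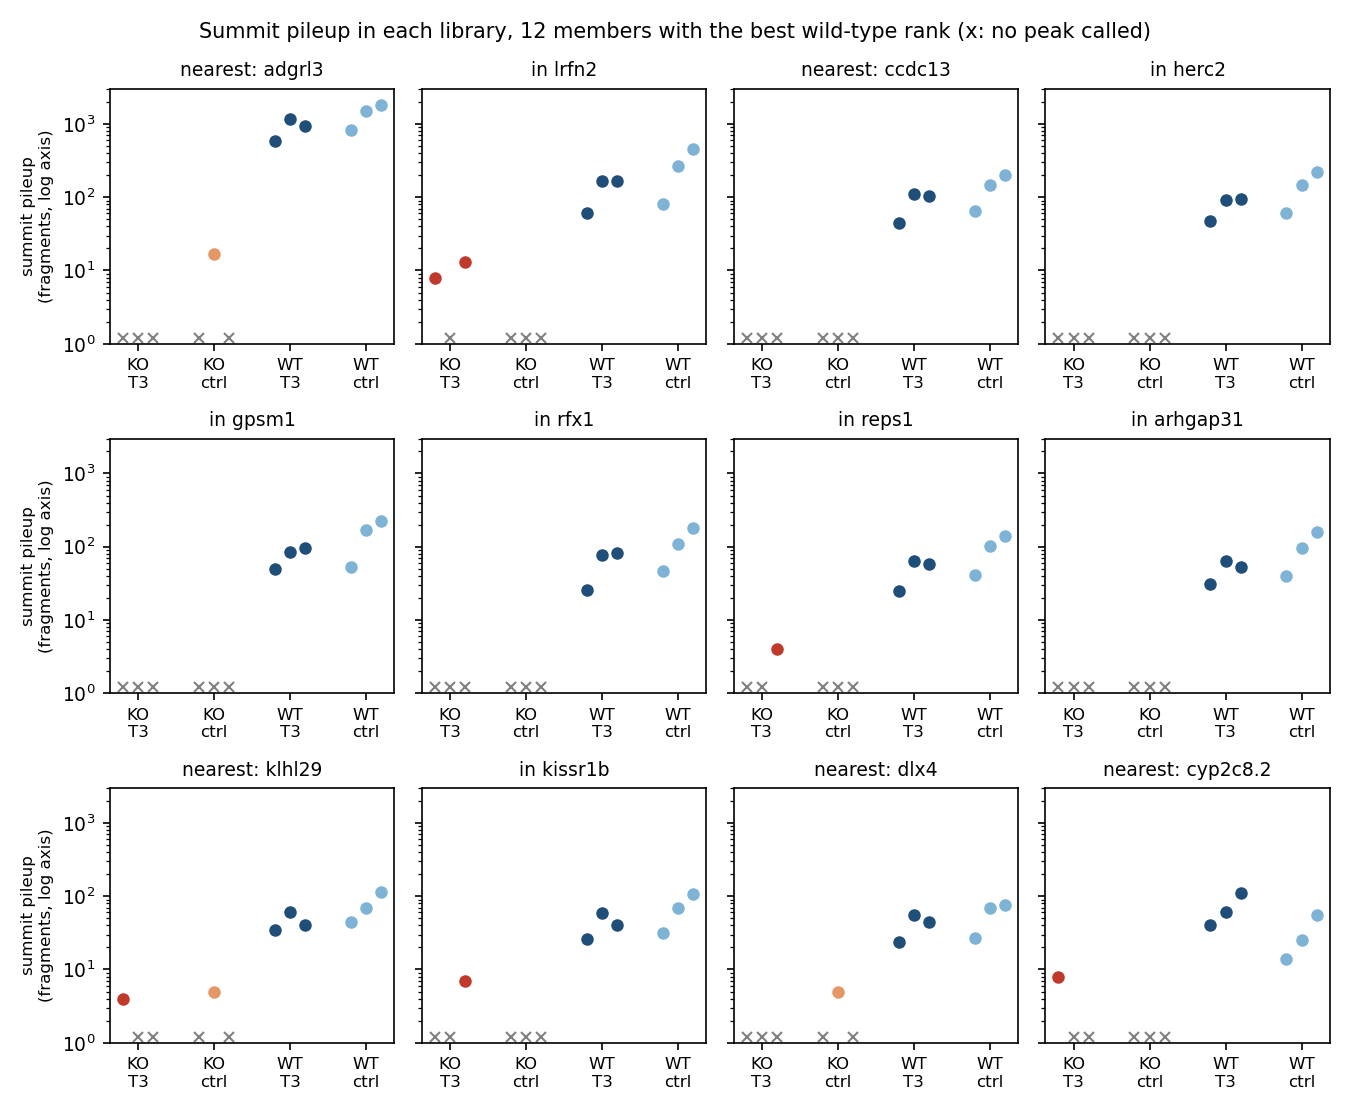
Summit pileup (fragments, log axis, not scaled to library size) in each of the 12 libraries at the 12 members with the best median wild-type rank, from TRα-/- T3 and TRα-/- control on the left to wild-type T3 and wild-type control on the right, with replicates 1 to 3 from left to right. Grey crosses mark libraries without a called peak and have no value. Wild-type pileups ran from 14 to 1802 fragments, and the highest TRα-/- pileup was 17.

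Among members with no TRα-/- peak at all, 3 others stood out by rank. The region at chr10:27302992-27303344, within 5 kb of LOC105945296 and 69683 bp from kcng1, had pileups of 24, 35 and 30 with T3 and 36, 41 and 79 without in wild-type intestine. The region at chr8:15001594-15001810, inside LOC100495467 and 64328 bp from tnfsf15, had 15, 39 and 47 with T3 and 19, 50 and 97 without. The region 389 bp from cdk8, the kinase of the Mediator complex, at chr2:152840260-152841012 had 32, 75 and 73 with T3 and 11, 28 and 27 without, so that its T3 libraries lay above its control libraries.

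The rule's limit of 2 TRα-/- libraries did not part strong regions by their pileups. Just inside, besides lrfn2 and klhl29, the region in ptprs, a receptor tyrosine phosphatase, at chr1:72744072-72744330 had TRα-/- pileups of 13 in T3 replicate 2 and 7 in control replicate 2, against 18, 45 and 44 in wild-type T3 and 11, 42 and 64 in wild-type control libraries. Just outside, with 3 TRα-/- peaks, the region 82206 bp from bsn, a scaffold protein of presynaptic terminals, at chr4:114925038-114925304 had TRα-/- pileups of 8 and 36 in T3 replicates 1 and 3 and 4 in control replicate 1, against 224, 474 and 497 with T3 and 326, 842 and 1185 without in wild-type intestine. The region in pdia4, a protein disulfide isomerase, at chr6:82790518-82790772 had 14, 16 and 27 in TRα-/- T3 libraries and no TRα-/- control peak, against 154, 399 and 341 in wild-type T3 and 188, 499 and 847 in wild-type control libraries. The region in LOC101733691 at chr9:3883742-3884330, 258033 bp from gbp7, had 11 and 17 in TRα-/- T3 replicates 2 and 3 and 6 in TRα-/- control replicate 3, against 163, 360 and 314 with T3 and 201, 513 and 878 without. In all 3 regions outside the rule, the lowest wild-type pileup was several times the highest TRα-/- pileup, while at ptprs, inside the rule, they overlapped.

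Strong members were narrow and their summits lay close together. In the strongest 3 bins the joined region had a median width of 350 bp at the 31 members, against 924 bp at the 1999 regions with a peak in all 12 libraries, and 58.1% of these members (18) were under 400 bp wide, against 5.70% of the regions with a peak in all 12 libraries. A joined region can only be widened by peaks of more libraries, so the regions with 3 to 5 TRα-/- libraries give a closer comparison, with a median of 640 bp and 20.2% under 400 bp. The 6 wild-type summits of a strong member spanned a median of 41 bp, against 115 bp at regions with a peak in all 12 libraries and 45 bp at those with 3 to 5 TRα-/- libraries. The span of the summits was therefore similar at strong regions with 3 to 5 TRα-/- libraries, while their width lay between those of the other groups.

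In the weakest 3 bins members were wider, with a median of 830 bp at the 423 members, against 1293.5 bp at regions with a peak in all 12 libraries. Over all strengths the median width was 780.5 bp at members, 961 bp at regions with 3 to 5 TRα-/- libraries and 1041.5 bp at regions with a peak in all 12. The 6 wild-type summits spanned a median of 373 bp at weak members, against 458.5 bp at weak regions with 3 to 5 TRα-/- libraries and 591 bp at weak regions with a peak in all 12, so that single libraries placed the peak at different points in each of these groups. No weak member had its summits within 20 bp, while 9 of the 31 strong members (29.0%) did.

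**Figure D3:**
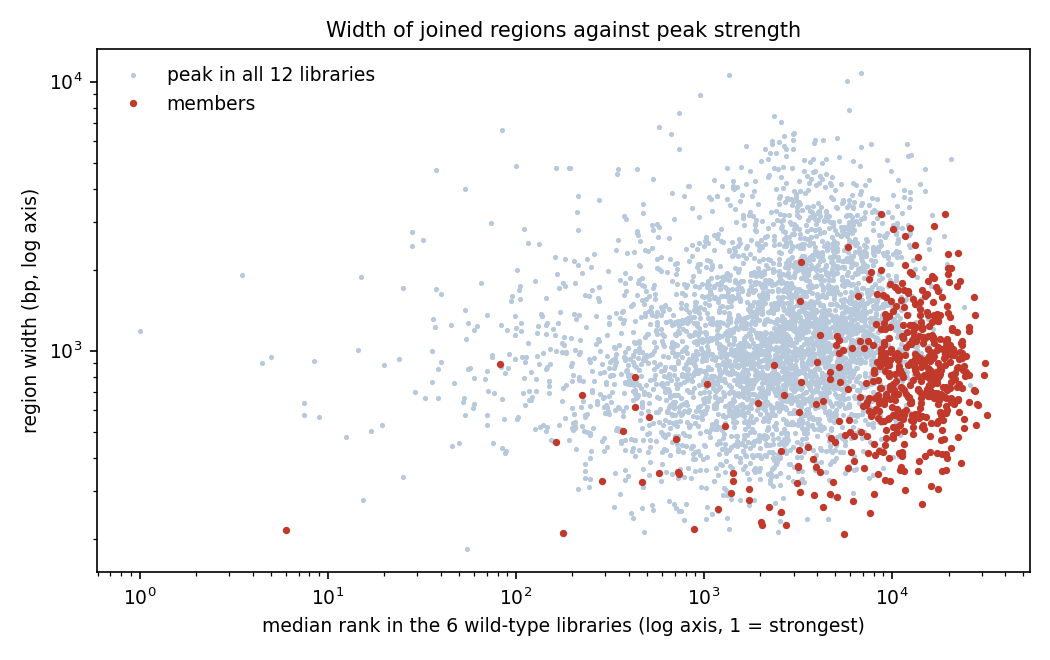
Width of the joined region (bp, log axis) against median wild-type rank (log axis, 1 is the strongest) for the 520 members (red) and the 3944 regions with a peak in all 12 libraries (blue). The strong members on the left lie at the lower edge of the widths, with a median of 350 bp in the strongest 3 bins, and the weak members on the right have a median of 830 bp in the weakest 3 bins.

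T3 against control in wild-type intestine was not a contrast that the rule used, since the rule asked for a peak in every wild-type library of both treatments. The comparison does use the same wild-type libraries as the rule. Among them is wild-type control replicate 1, which had the lowest background level (0.0898). How the need for a peak in that library bears on the T3 changes of members was not tested. The highest summit pileup of each library was put on the log2 scale, quantile-normalised over the 6 wild-type libraries and compared between T3 and control libraries with limma over all 7343 regions, with Benjamini-Hochberg adjustment. The normalisation gives every library the same distribution of values, so a fall or rise here is relative to the other regions tested. A change common to all regions would not show. At an adjusted p under 0.05, 27 of the 520 members fell with T3 (5.19%) and none rose. Over all regions tested 0.64% fell and 0.0953% rose. At an unadjusted p under 0.05, 54 members were lower with T3 and 9 were higher, against 216 lower and 254 higher of all 7343 regions. All falls were at stronger members: 20 of the 31 members in the strongest 3 bins fell (64.5%, against 6.36% of regions of this strength with 3 to 5 TRα-/- libraries and 1.63% of all), as did 27 of the 56 in the strongest 5 bins (48.2%, against 1.28% of all), and none of the 423 in the weakest 3 bins did. Fold enrichment is the ratio of the pileup to the local background of the same library, with 1 added to each. It was quantile-normalised in the same way, and how its background, taken without input, bears on strong peaks was not tested. On it, 13 of these 27 fell and no other member did. The 14 calls lost there were at adgrl3, lrfn2 (the region inside the gene), ccdc13, rfx1, klhl29, kissr1b, dlx4, tnfsf15, pitx1, wdr7, tmem171, wnk3, alpk2 and crygn.

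The 27 falls ran from −1.04 to −2.17 on the log2 scale, with a median of −1.46, standard errors of 0.14 to 0.34 and limma adjusted p from 3.64e-06 to 0.0315. limma draws each standard error partly from the other regions, so it can differ from what the libraries of 1 region give. At the adgrl3 region the normalised values had standard deviations of 0.28 with T3 and 0.37 without, with a standard error of 0.14. In herc2 these were 0.05 and 0.04, with a standard error of 0.17. At each of the 27 falls every T3 library lay under every control library after normalisation. This held for 61 members in all (11.7%, against 5.12% of all regions tested), and the opposite order held for 14 (2.69%, against 5.42%). Raw pileups of T3 and control libraries could overlap, as at adgrl3, and the background level was 0.251, 0.523 and 0.664 in T3 replicates 1, 2 and 3, against 0.0898, 0.279 and 0.426 in control replicates. The median log2 change over all 520 members was −0.13, against 0.01 over all regions tested, and 323 members (62.1%) had a change below 0, against 48.9% of all regions tested. With 1 wild-type library left out, the median of members ran from −0.19 (without control replicate 3) to −0.04 (without control replicate 1).

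On pileup, the strongest members fell by similar amounts. The log2 change was −1.04 at the adgrl3 region (SE 0.14, limma adjusted p = 4.1e-05), −1.59 in lrfn2 (SE 0.18, limma adjusted p = 3.64e-06) and −1.35 near ccdc13 (SE 0.18, limma adjusted p = 3.07e-05). In herc2 the change was −1.46 (SE 0.17, limma adjusted p = 4.36e-06), with ranks of 318, 287 and 319 in T3 libraries and 70, 55 and 47 in control libraries. The changes were −1.45 in gpsm1, −1.48 in rfx1, −1.55 in reps1, −1.51 in arhgap31, −1.37 at the klhl29 region, −1.32 in kissr1b and −1.14 at the dlx4 region, all past the threshold on pileup, with adjusted p from 9.35e-06 to 0.00525 (limma). The regions near kcng1 (−1.46) and tnfsf15 (−1.27) fell as well, and those near cyp2c8.2 (0.56, SE 0.25, adjusted p = 0.758) and cdk8 (0.78, SE 0.25, adjusted p = 0.374) did not pass the limma test. The dlx4 call was lost without wild-type control replicate 2, T3 replicate 1 or T3 replicate 3 (limma adjusted p of 0.102, 0.0574 and 0.0794), and the tnfsf15 call without control replicate 2, control replicate 3 or T3 replicate 1 (limma adjusted p of 0.0663, 0.114 and 0.109). On quantile-normalised fold enrichment every fall named in this paragraph was smaller, from no change at the adgrl3 region to −0.97 near kcng1. The log2 change on that scale was −0.50 in lrfn2, −0.58 near ccdc13 and −0.53 in herc2. This normalisation gives no change to a region with the same place in the order of every library, whatever its raw values. Raw fold enrichment at the adgrl3 region was 58.5, 52.6 and 50.7 with T3 and 69.3, 56.6 and 53.5 without.

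The changes of the strong members fell into separate ranges. Of the 31 members in the strongest 3 bins, 21 had a log2 change between −2.17 and −1.04, and the other 10 lay between −0.64 and 0.78, with no member between −1.04 and −0.64. The 21 hold the 20 called falls and a region of 278 bp nearest to hist1h2bk at chr9:1358000-1358277 (−1.21, limma adjusted p = 0.0504). Strong regions outside the rule had values in the lower range too, at smaller shares than the 67.7% of strong members. Of the 173 with 3 to 5 TRα-/- libraries, 11 (6.36%) lay between −1.96 and −1.24 and the next at −0.89. Of the 1999 with a peak in all 12 libraries, 5 (0.250%) lay between −1.67 and −1.26 and the next at −0.96. Whether any of these gaps marks separate groups was not tested. The line at −1 was chosen after the values were seen.

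**Figure D4:**
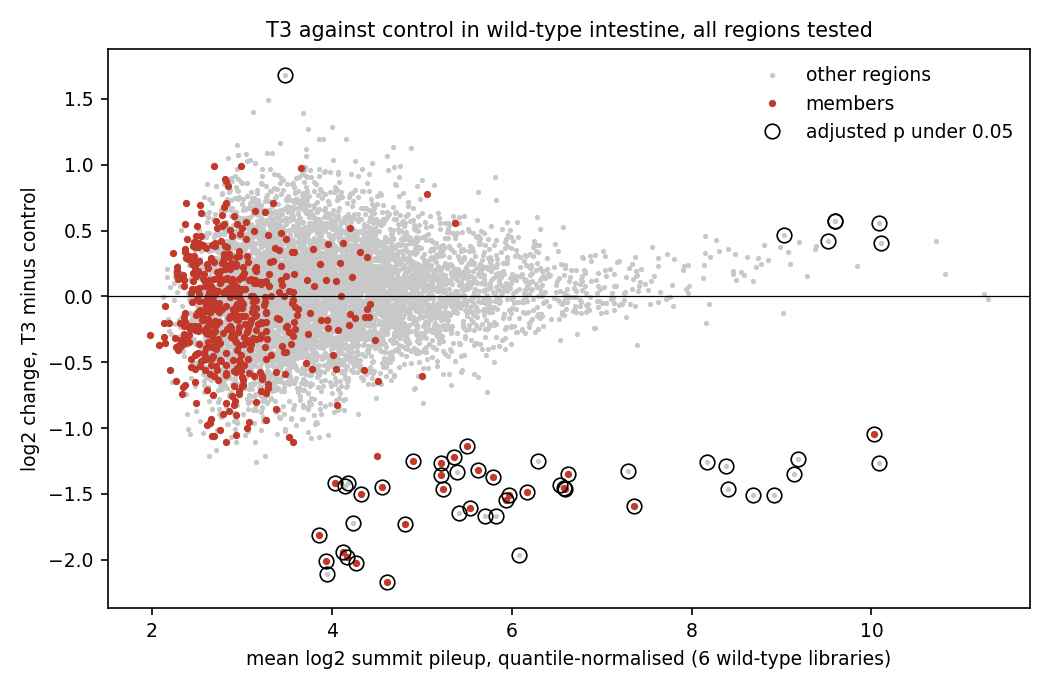
Log2 change of the normalised summit pileup, T3 minus control, in wild-type intestine against the mean normalised log2 pileup of the 6 wild-type libraries, for the 520 members (red) and the other regions tested (grey), with circles around regions with a limma adjusted p under 0.05. The 27 circled members lie at −1.04 or lower, below most other regions. In the same range, from −2.11 to −1.24, lie 20 circled falls outside the members. Of the 7 circled rises, 6 are regions with a peak in all 12 libraries.

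The largest falls were at less strong members. The region 31176 bp from gbe1, the glycogen branching enzyme, at chr2:20470449-20470745 had pileups of 10, 27 and 12 with T3 and 22, 47 and 66 without, a change of −2.17 (SE 0.30, limma adjusted p = 5.9e-05), with no TRα-/- peak. The region in sdk2, a cell adhesion molecule of the immunoglobulin family, at chr10:24451931-24452228 had 8, 15 and 15 with T3 and 16, 36 and 49 without (−2.02, SE 0.29, limma adjusted p = 8.73e-05), and the region 60262 bp from camk2g, a calcium/calmodulin-dependent kinase, at chr7:52189938-52190199 had 7, 12 and 11 with T3 and 13, 24 and 45 without (−2.01, SE 0.32, limma adjusted p = 0.000464). Neither had a TRα-/- peak. Raw T3 and control pileups overlapped at the gbe1 region and did not overlap at the other pair.

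The region 1834 bp from txnrd3, a thioredoxin reductase, at chr4:122879687-122879912 had a TRα-/- peak of 8 fragments in T3 replicate 3, against 6, 12 and 22 in wild-type T3 and 13, 39 and 44 in wild-type control libraries, with a T3 change of −1.98 (SE 0.32, limma adjusted p = 0.000551). The region in zbtb20, a zinc finger transcription factor, at chr2:439866-441010 had 6 in TRα-/- T3 replicate 3, against 8, 11 and 17 with T3 and 18, 25 and 43 without in wild-type intestine (−1.94, SE 0.32, limma adjusted p = 0.000626). In both the TRα-/- peak was of about the height of the lowest wild-type peak, and it was called in the deepest TRα-/- library by background level.

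The remaining falls, apart from 2 described further on, were at 7 members outside the naming rule, listed here after their values were seen. The region in wdr7, a WD-repeat protein, at chr1:189160991-189161337 had 4 fragments in TRα-/- T3 replicate 2, against 14, 53 and 52 in wild-type T3 and 17, 64 and 114 in wild-type control libraries (−1.22, limma adjusted p = 0.0315). The region in tmem171, a membrane protein, at chr1:166709303-166709827 had no TRα-/- peak, against 19, 24 and 33 with T3 and 26, 38 and 47 without (−1.25, limma adjusted p = 0.0203). The region in wnk3, a kinase that acts on cation-chloride cotransporters, at chr8:8281495-8282381 had 11 in TRα-/- T3 replicate 3 and 5 in TRα-/- control replicate 3, against 12, 18 and 16 with T3 and 14, 33 and 41 without in wild-type intestine (−1.50, limma adjusted p = 0.00519). Raw pileups of T3 and control libraries overlapped in all 3 genes.

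A region nearest to mrps30, a protein of the mitochondrial ribosome, at chr1:181449989-181450339 had no TRα-/- peak, against 13, 27 and 22 with T3 and 26, 43 and 56 without (−1.73, limma adjusted p = 0.000267). A region within 5 kb of alpk2, an alpha kinase, at chr1:188433686-188434596 had 3 in TRα-/- control replicate 3, against 8, 11 and 11 in wild-type T3 and 15, 23 and 28 in wild-type control libraries (−1.81, limma adjusted p = 0.00359). At alpk2 every raw T3 pileup lay under every control pileup. Intergenic regions nearest to lrfn2 (chr5:745962-746552) and to crygn (chr6:6763029-6763319), with no TRα-/- peak, had changes of −1.45 and −1.41 (limma adjusted p = 0.00418 and 0.0214). Of these 7 calls, 5 did not hold in every fit with 1 library left out: the tmem171 call held only without wild-type control replicate 3 and the crygn call only without wild-type control replicate 1, the wdr7 call was lost without wild-type control replicate 2 or 3 or T3 replicate 1 or 3, the wnk3 call without wild-type control replicate 2 or T3 replicate 3 (limma adjusted p of 0.0812 and 0.0704) and the lrfn2 call without wild-type control replicate 2 (limma adjusted p of 0.109).

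The falls were spread unevenly over the members by their number of TRα-/- peaks, with no test of the difference. A fall was called at 15 of the 75 members with no TRα-/- peak (20%), at 9 of the 146 with 1 and at 3 of the 299 with 2. Strong members were spread in the same direction: 15 had no TRα-/- peak, 25 had at most 1 and all 31 had at most 2. Of the 27 falls, 20 were at strong members, and all 27 were in the strongest 5 bins. How the falls vary with the number of TRα-/- peaks at equal strength was not tested. The 27 members were 57.4% of the 47 falls over all regions, and the other 20 were at 15 regions with 3 to 5 TRα-/- libraries, 10 of them with 3, and at 5 regions with a peak in all 12 libraries. At these 20 the median TRα-/- pileup, over the TRα-/- libraries with a called peak, was divided by the median wild-type pileup. Libraries without a peak have no value and are left out. The ratio was between 0.0165 and 0.583, with a median of 0.0649, against a median of 0.556 over regions with a peak in all 12 libraries. The genotype and the T3 comparisons share the wild-type libraries, and these values stand side by side as a description.

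By position, 14 of the 27 falls overlapped a gene, 5 lay within 5 kb of one and 8 lay farther away, so that no kind of location held all of them. Over all members 221 overlapped the body of a gene (42.5%), 57 lay in the 5 kb beside one (10.96%) and 242 lay farther away (46.5%). Regions with a peak in all 12 libraries overlapped gene bodies in 36.4% and flanks in 16.6%, and lay farther away in 47.0%. Of the members, 10 (1.92%) overlapped an exon given in the lists, against 1.498% of all wild-type regions, and none of those picked by the naming rule did. The lists give the features nearest to a peak and not every exon.

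The start of a gene lay in 4 members (0.769%), against 0.518% of all wild-type regions. These 4, looked up after their values were seen, were pitx1, zbtb45, gpcpd1 and trnai-aau. The region at the start of pitx1, a homeodomain transcription factor of the hindlimb and pituitary, at chr3:16854892-16855360 had 3 fragments in TRα-/- T3 replicate 2, against 21, 39 and 48 in wild-type T3 and 26, 91 and 117 in wild-type control libraries, and fell with T3 (−1.61, SE 0.22, limma adjusted p = 5.56e-05). Regions at the starts of zbtb45, a zinc finger protein, at chr7:94753935-94754304 and of gpcpd1, a glycerophosphocholine phosphodiesterase, at chr5:20874149-20874567 had no TRα-/- peak. Their T3 changes were 0.36 and 0.04 and did not pass the limma test (adjusted p = 0.922 and 0.993).

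Along the genome, members were single regions. Neighbouring members on a chromosome lay a median of 895568 bp apart, and 2 pairs lay within 10 kb of each other. The share of wild-type regions that were members ran from 4.98% on chromosome 3 to 8.55% on chromosome 1. A region with a peak in all 12 libraries lay within 10 kb of 74 members (14.2%), of 18.5% of regions with 3 to 5 TRα-/- libraries and of 26.0% of the other such regions, differences that were not tested. One of the close pairs was at wnt11r, a Wnt ligand gene, where a region inside the gene at chr2:169168284-169168954 had 6 fragments in TRα-/- T3 replicate 3, against 7, 16 and 14 in wild-type T3 and 4, 5 and 15 in wild-type control libraries. The other region of the pair, 4007 bp from the gene at chr2:169175934-169176262, had no TRα-/- peak, against 17, 38 and 39 with T3 and 22, 48 and 95 without. The second fell with T3 (−1.36, limma adjusted p = 0.0014) and the first had a change of 0.11 (limma adjusted p = 0.979). The other pair was the cyp2c8.2 region above and a region at chr8:97788229-97788602, also with a log2 change above 0 (0.52, limma adjusted p = 0.864).

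Through the body or the 5 kb beside it, 308 of the 19768 genes named in the lists had a member (1.56%), 219 of them with a symbol of their own. For 164 of the 308 (53.2%) no other wild-type region lay there, and at the others one did. A second member was found in 12 genes, among them bcl9, a coactivator of Wnt signalling, myocd, a coactivator of smooth muscle genes, and ptk2b, a focal adhesion kinase, which were picked here after the values were seen.

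Genes of 11 lists that fit the tissue and hormone were then looked up. Of 330 list genes named in the peak lists, 4 had a member (1.21%), a share near the 1.56% of all named genes. A wild-type region that was no member lay at 38 of them (11.5%), and at 2568 of the 19768 named genes. The 4 were hnf4a and nr5a2, of 41 nuclear receptors and TR coregulators, disp1, 1 of 15 genes of the hedgehog pathway, and axin1, 1 of 47 of the Wnt pathway. No member lay at any of the 13 T3 response genes and deiodinases, 18 Notch, 27 TGF-β and BMP and 65 cell cycle genes listed. The same held for the 28 apoptosis, 31 matrix and proteinase, 27 gut transcription factor and 18 epithelial genes listed. The lists do not hold every gene of a pathway: wnt11r and bcl9, with 2 members each, are not in the Wnt list. Likewise ncapg2, anapc15 and acvr1c, with 1 member each, are in none of the lists. At the share of all named genes, lists this short would hold few or no genes with a member, so absence from a pathway cannot be read from them.

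The regions at these 4 genes were weak and inside the gene. The region in nr5a2, a nuclear receptor also known as LRH-1, at chr4:101658025-101659707 had 9 fragments in TRα-/- control replicate 1, against 3, 10 and 10 in wild-type T3 and 8, 7 and 8 in wild-type control libraries. The region in hnf4a, a nuclear receptor of liver and gut epithelium, at chr10:30148019-30148958 had 3 and 6 in TRα-/- control replicates 1 and 3, against 3, 10 and 18 with T3 and 3, 6 and 8 without in wild-type intestine. In both, the TRα-/- pileups lay within the wild-type range.

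The region in disp1, a membrane protein that releases hedgehog ligands, at chr5:5850993-5851606 had 6 in TRα-/- T3 replicate 1 and 5 in TRα-/- control replicate 3, against 6, 19 and 12 in wild-type T3 and 3, 7 and 8 in wild-type control libraries. The region in axin1, the scaffold of the complex that degrades β-catenin, at chr9:9317151-9318142 had 5 in TRα-/- T3 replicate 1, against 3, 10 and 7 with T3 and 3, 9 and 6 without in wild-type intestine. Again the TRα-/- values lay within the wild-type range, and median wild-type ranks at the 4 genes were 11629.5 to 23065. None of the 4 changed with T3 past the threshold, with log2 changes of −0.87, −0.05, 0.31 and −0.53 and limma adjusted p of 0.779, 0.988, 0.948 and 0.883 in nr5a2, hnf4a, disp1 and axin1.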

How the data were processed

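ChIP-Seq peak lists of 12 libraries were analysed, 3 technical replicates for each of 4 conditions. The authors mapped reads with Bowtie2 (2.3.4.1) on Xenbase v9.1, dropped duplicate reads with samtools and ran MACS2 (2.1.1.20160309) on each library without a control, at a q-value under 0.05. The deposited lists give for each peak its position, its width in bp, the pileup signal at its summit (unscaled fragments), the fold enrichment ratio and −log10 values of the p-value and q-value, with nearby annotated features that give a peak several lines. Lines were reduced to 1 per peak. Without read totals the depth of each library, and so its precision, is unknown, and depth moves both peak calls and pileups.

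Peaks overlapping by 1 bp or more were joined across libraries. Peaks were ranked within a library by −log10 p. Gene extents came from the features in the lists (complete for 69.3% of 19768 genes), with 5 kb flanks. T3 was tested with limma 3.58.1 (R 4.3.3, trend) on quantile-normalised log2 highest pileup. Python 3.11.15 with pandas 2.3.3 and numpy 2.4.6 was used. Joining with the member rule and the limma fit were tested on simulated data, and the other steps were not. Named are the 12 strongest members, the 8 strongest without a TRα-/- peak, the 5 largest changes with T3, list genes with a member and the edge values, each by the gene overlapped or the nearest gene with its own symbol. Members, lists and naming rule were chosen with earlier results of these data known. Alternatives were a −log10 q of at least 5, equal numbers of peaks, 50% overlap, other limits on TRα-/- libraries, other scales, the replicate block and each library left out. No sequence is shown, and motifs were not analysed here.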

Additional observations from a re-analysis of the deposited data

How the results depend on the processing

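The number of members depended on the rule and the lists. It was 275 with a −log10 q of at least 5 (60 of the 520 overlapped), 219 with the 17414 strongest peaks of each library (122 overlapped), 463 with 50% overlap of both peaks (304 overlapped), 75, 221 and 1034 with at most 0, 1 and 3 TRα-/- libraries, and 588 to 1214 with 1 library left out, which loosens the rule. Leaving out wild-type control replicate 1 (1214), wild-type T3 replicate 1 (803), TRα-/- control replicate 2 (841) or 3 (842) or TRα-/- T3 replicate 3 (836) raised it by over 1.5 times. The share of wild-type regions in the weakest of 10 rank bins that were members was also followed. In the settings before these it was 47.1%, 17.2%, 35.4%, 4.49%, 14.6% and 55.1%, and 32.8% to 46.4% with 1 library left out. The share of wild-type regions in the strongest 3 bins that were members moved to 2.62% with the q limit and 0.681% with at most 0 TRα-/- libraries. It was 1.25% to 1.91% with 1 library left out. The list genes with a member were 2, 0, 0, 0, 2 and 9, and 4 to 10 with 1 library left out, with 10 without wild-type control replicate 1, 8 and 7 without TRα-/- control replicates 2 and 3 and 7 without TRα-/- T3 replicate 2. The share in flanks was 15.3% with the q limit, and with genes of their own symbol alone body and flank shares were 32.9% and 7.69%. With 1 library left out body shares were 40.4% to 43.0% and flank shares 10.7% to 12.9%.

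Falls of members with T3 numbered 13 on fold enrichment, all among the 27, with 18 falls over all regions, and the adgrl3, lrfn2, ccdc13, rfx1, klhl29, kissr1b, dlx4, tnfsf15, pitx1, wdr7, tmem171, wnk3, alpk2 and crygn regions were not called there. The cause was not tested. They numbered 27 with median centring, 24 on rank scores, 28 with a pseudocount of 1, with a filter at a mean pileup of 5 and with the replicate block, and 20 to 27 with 1 library left out, where the dlx4, tnfsf15, wdr7, tmem171, wnk3, crygn and second lrfn2 regions were lost at least once. No member rose in any of these settings. Same-numbered T3 and control libraries deviated together by r = 0.0951, 0.0293 and 0.0723 over 7343 regions, so the numbers were not taken as pairs. Pileups were low at most members, with a median of 4 to 12 in a wild-type library, and how this limits the T3 test was not tested.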
